A study of Mus musculus with 2 samples.

Results

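Imprinted genes were followed through the activation of mouse muscle stem cells (MuSCs): Meg3, Rian, H19, Igf2, Dlk1, Peg3, Mest, Grb10, Plagl1 and Gnas. These 10 genes were chosen by symbol, out of 20830 and 26997 genes listed for the 2 libraries. Levels were compared between barcodes of 3000 to 15000 unique molecular identifiers (UMIs) that held 0 UMIs of the cell cycle genes Rrm2, Top2a and Cdk1, called the low-UMI band, and barcodes of at least 20000 UMIs, called the high-UMI band.

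An imprinted gene is transcribed mainly from the copy inherited from 1 parent. Meg3, Rian and H19 are long noncoding RNAs of the maternal copy, and Grb10 is maternal in most tissues. Igf2, Dlk1, Peg3, Mest and Plagl1 are transcribed from the paternal copy, and Gnas has several promoters with different parental origin. As a group they are known for control of fetal growth, and several are known to be expressed in MuSCs. Reads were not assigned to a parental copy here, so imprinting itself was not measured.

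The mice were Pax7creERT2 R26-eYFPfl/fl on a C57BL6 background and were given tamoxifen at 3 months of age, 100 uL of 20 mg/ml in corn oil daily for 5 days. The Cre was driven by Pax7, so YFP marks cells that had expressed Pax7 at labelling, and their progeny. Quiescent cells came from uninjured muscle and activated cells from muscle taken 72 h after 40 uL of 1.2% barium chloride, a myotoxin. Both were sorted for YFP and put together in 1 capture of single cells, which was divided into a 10% aliquot (short and long reads) and a 90% aliquot (short reads).

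No label gives the origin of a cell, so the bands are not the study's groups, and origin and depth per barcode cannot be told apart between them. The bands were unlike in the markers of quiescence: the summed level of 10 such genes was 1302 and 1672 UMIs per 1000000 UMIs of the band (CPM) in the low-UMI band of the 10% and 90% aliquots, against 125 and 152 CPM in the high-UMI band. Chrdl2, a gene of this list, was at 155 and 215 CPM against 0.196 and 1.34 CPM. Myod1, a transcription factor of activated MuSCs, was 1106 and 1069 CPM in the low-UMI band and 185 and 213 CPM in the high-UMI band, so the low-UMI barcodes are not all without it. Other genes of its list of 10 markers of activated MuSCs or myoblasts differed the other way. Myog was at 1.79 and 36.7 CPM against 33.1 and 74.6 CPM, and Ccnd1 at 32.3 and 34.3 CPM against 157 and 197 CPM. Mki67, Ccnb1, Mymx and Des were also higher in the high-UMI band, while Rrm2, Top2a and Cdk1 are 0 in the low-UMI band by its rule. With Myod1, the list summed to 1395 and 1449 CPM against 1062 and 1357 CPM.

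The low-UMI band held 157 and 1243 barcodes (median 6729 and 4680 UMIs) and the high-UMI band 79 and 606 barcodes (median 65499 and 47106 UMIs) in the 10% and 90% aliquots. The aliquots are not independent. All 269 barcodes of at least 3000 UMIs of the 10% aliquot have a sequence that is also listed in the 90% aliquot, where the median ratio of their UMIs was 0.817 for barcodes of 3000 to 15000 UMIs and 0.804 for those of at least 20000. The expression profile of 268 of these 269 correlated most with that of its own sequence in the other aliquot (median Pearson r across genes 0.931, against 0.684 for other sequences). How cells of 1 aliquot came to be counted in the other was not tested. Values of the 90% aliquot are therefore also given for its 1000 low-UMI and 399 high-UMI barcodes whose sequence is not in the 10% aliquot, called unshared barcodes. There is 1 capture and no replicate of it, so no test was made. Intervals in parentheses are exact 95% intervals, which cover counting error only.

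Of the 10 members, 8 had at least 50 UMIs over both bands in each aliquot. Meg3, Rian and Plagl1 were at least 2-fold lower in the high-UMI band in both aliquots, and H19 was at least 2-fold higher. Among the 7051 genes with as many UMIs, 12.0% were lower and 27.5% higher by this rule. In the 10% aliquot alone the same 3 members were lower (14.2% of genes) and H19 higher (32.5% of genes), and in the 90% aliquot alone the same 3 were lower (14.1%) and H19 and Mest higher (32.2%). With unshared barcodes for the 90% aliquot, the same 3 members were lower and the same 1 higher, beside 11.7% and 27.1% of 7033 genes. The median of all genes was itself shifted by 0.37 and 0.38 on the log2 scale towards the high-UMI band, and the median of the 8 members was -0.91 and -0.67.

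**Figure D1:**
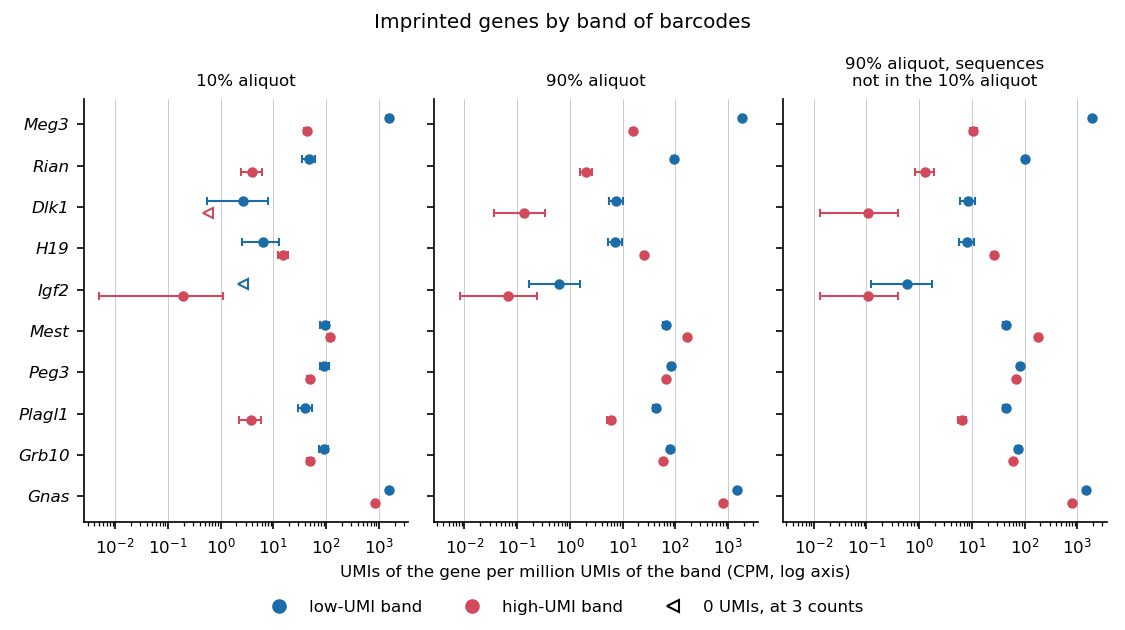
Level of each member in CPM (log axis) in the low-UMI and high-UMI bands of the 10% aliquot, the 90% aliquot, and the 90% aliquot without the barcode sequences of the 10% aliquot. Bars are exact 95% Poisson intervals, and an open triangle marks 0 UMIs, drawn at the level of 3 counts. Meg3 lies at 1540 and 1851 CPM in the low-UMI bands and at 43.3 and 15.9 CPM in the high-UMI bands.

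Meg3, a noncoding RNA that binds chromatin regulators, showed the largest difference of the members that had at least 50 UMIs. It lies on chromosome 12, chr12:109541001-109571726 (GRCm38, plus strand). It was at 1540 CPM (1468 to 1614) in the low-UMI band and 43.3 CPM (37.8 to 49.4) in the high-UMI band of the 10% aliquot, 35.5-fold lower (30.9 to 41.1). In the 90% aliquot it was at 1851 CPM (1818 to 1884) and 15.9 CPM (14.5 to 17.4), 116-fold lower (106 to 128). The bands were far apart in both aliquots, and in unshared barcodes the values were 1882 and 10.7 CPM, 177-fold apart (153 to 204). Among the 7051 genes, Meg3 ranked 40 and 19 from the most reduced.

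By short reads the difference was in the number of barcodes with any Meg3 as well as in its level. A UMI of Meg3 was found in 123 of 157 low-UMI barcodes (78.3%, 71.1 to 84.5) and 26 of 79 high-UMI barcodes (32.9%, 22.7 to 44.4) of the 10% aliquot, and in 85.8% and 20.6% of the barcodes of the 90% aliquot. Thinned to 3000 UMIs per barcode, these shares were 75.2% against 9.52% and 83.6% against 3.67%. By long reads of the 10% aliquot, not thinned, 143 low-UMI and 72 high-UMI barcodes had a UMI of Meg3, which is most barcodes of each band. In the high-UMI band the short-read UMIs sat in few barcodes: the 4 highest of 79 held 63.8% of them in the 10% aliquot, and the 30 highest of 606 held 73.3% in the 90% aliquot. In the low-UMI band the highest 8 and 62 barcodes held 18.2% and 18.3%.

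The level was also taken in barcodes that should hold free RNA or cells of another type. The 1132 barcodes of 10 to 100 UMIs in the 10% aliquot had 3 UMIs of Meg3, a level of 112 CPM (23.0 to 326), and the 970 of them whose sequence is not in the 90% aliquot had 150 CPM (30.9 to 438). The 43.3 CPM of the high-UMI band is not above that level. That level rests on 3 UMIs in barcodes with a median of 18 UMIs, so the comparison does not tell expression from background. The high-UMI band had 221 UMIs of Meg3, up to 49 in 1 barcode, and few barcodes held most of them. Barcodes with UMIs of at least 3 immune marker genes had no Meg3 UMI, in 0 of 5 barcodes (median 13038 UMIs) and 0 of 16 (median 9278 UMIs), which allows a level of up to 50.1 and 16.4 CPM. The low-UMI level of the 10% aliquot is above these values, and that of the 90% aliquot is above its immune marker limit. The 90% aliquot had 20 barcodes of 10 to 100 UMIs with 0 UMIs of Meg3. This allows up to 2146 CPM, above its low-UMI level, so it gives no usable level of free RNA.

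Above 10000 UMIs the level was lower with each step of UMIs. In the 90% aliquot Meg3 was at 2008 CPM from 5000 to 10000 UMIs, 705 CPM from 10000 to 15000, 355 CPM from 15000 to 20000, 38.2 CPM from 20000 to 40000 and 11.2 CPM from 40000 to 80000. The same steps of the 10% aliquot had 1690, 1054, 672, 163 and 49.6 CPM. In barcodes of 3000 to 15000 UMIs with a UMI of Rrm2, Top2a or Cdk1, which the bands leave out, it was at 703 CPM (21 barcodes) and 895 CPM (148 barcodes), between the levels of the bands. Within the low-UMI band Meg3 was close with and without Myod1, at 1540 CPM without and 1539 CPM with a Myod1 UMI in the 10% aliquot, and at 1961 (1913 to 2009) and 1736 CPM (1691 to 1783) in the 90% aliquot. Its nearest gene over the high-UMI barcodes, by the measure described for H19, was Gpx3 (0.22, and 0.26 in the 10% aliquot).

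**Figure D2:**
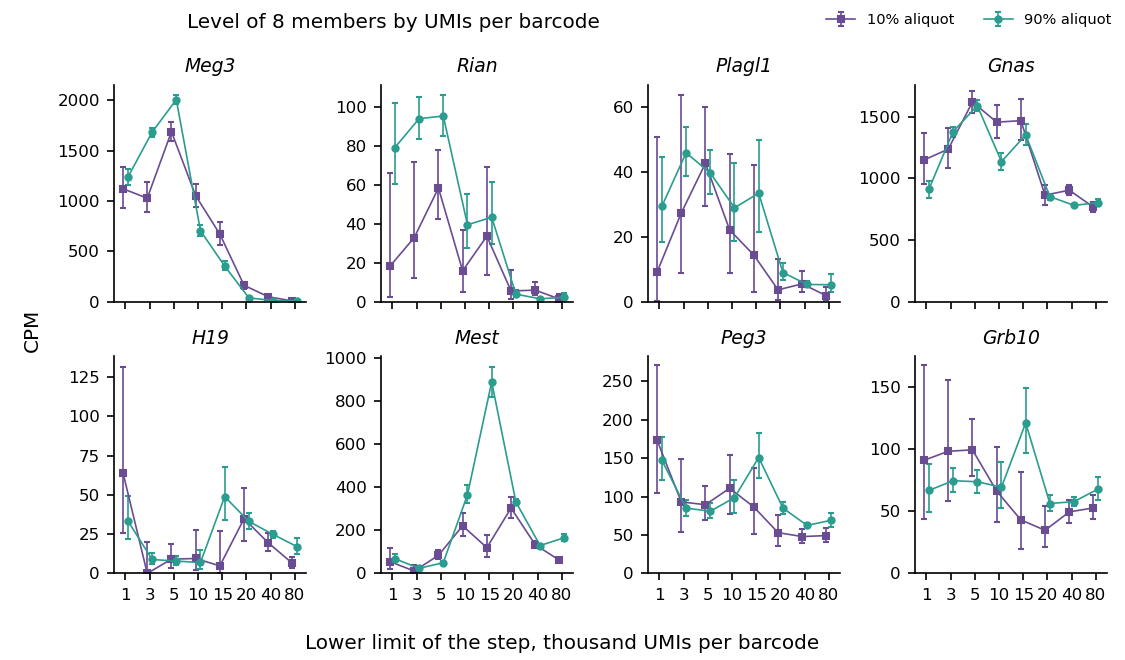
Level of 8 members in CPM (linear axes) over 8 steps of UMIs per barcode, named by their lower limit, with exact 95% Poisson intervals. Squares are the 10% aliquot and circles the 90% aliquot. Meg3 is lower at each step from 10000 UMIs, Rian is at most 5.94 CPM from 20000 UMIs, and Mest of the 90% aliquot peaks at 891 CPM in the step from 15000 UMIs.

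The RefSeq window around the first Meg3 start, chr12:109540746-109541045 (GRCm38.p6, plus strand, 250 bases before the start and 50 after), is shown because it holds the letters of a cAMP response element, and cAMP signalling genes are described below. Binding to these letters and cAMP itself were not measured, and a link to the level of Meg3 was not tested. The match to TGACGTCA, which reads the same on both strands, is in capitals and begins 57 bases before the start.
Meg3 promoter: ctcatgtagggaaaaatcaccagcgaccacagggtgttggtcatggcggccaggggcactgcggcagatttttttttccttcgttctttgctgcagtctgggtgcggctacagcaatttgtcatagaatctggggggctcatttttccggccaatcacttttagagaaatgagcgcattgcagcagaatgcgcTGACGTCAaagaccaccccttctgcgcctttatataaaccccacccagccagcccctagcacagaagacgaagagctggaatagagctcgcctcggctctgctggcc
The same letters occur in 588 of 32851 promoter windows (1.79%), among them that of Peg3 and of no other member with a window.

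Rian, the noncoding host of many small nucleolar RNAs, lies downstream of Meg3 at chr12:109603940-109661716 (plus strand). It was at 46.7 CPM (34.8 to 61.2) in the low-UMI band and 3.92 CPM (2.40 to 6.06) in the high-UMI band of the 10% aliquot, 11.9-fold lower (6.98 to 21.0). In the 90% aliquot it was at 94.1 and 2.01 CPM, 46.8-fold lower (35.9 to 62.1), and 79.1-fold lower (52.6 to 125) in unshared barcodes. The shares of barcodes with a UMI, thinned to 3000 UMIs, were 11.5% against 1.55% and 21.2% against 0.635%. The intervals of the levels do not overlap between the bands in either aliquot. Across the 1243 low-UMI barcodes of the 90% aliquot the levels of Meg3 and Rian had a Spearman correlation of 0.40, as a description within 1 library.

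Dlk1 and Mirg stand at either side of these genes. Dlk1, a transmembrane protein related to Notch ligands (chr12:109452823-109463336), was sparse: 3 UMIs in the low-UMI band and 0 in the high-UMI band of the 10% aliquot, and 49 and 4 UMIs in the 90% aliquot (7.59 and 0.134 CPM, a ratio of 56.7, 20.8 to 216). A Dlk1 UMI was found in 19 of 1243 low-UMI and 4 of 606 high-UMI barcodes, so its UMIs were from few cells. Mirg, a noncoding RNA near Rian in the list of other imprinted genes, with too few UMIs for the count, had 10 and 0 UMIs in the 10% aliquot and 72 and 5 in the 90% aliquot. It is named after its values were seen.

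Several members carry microRNAs. The RefSeq table has 15 mature microRNAs of 8 genes inside the members on the same strand: 3 in Meg3, 6 in Rian and 2 each in H19, Igf2 and Mest. The microRNAs were not measured. Those of the members that passed the 2-fold rule are shown in part, 1 microRNA gene per host, with the seed (bases 2 to 8) in capitals.
mmu-miR-770-5p, in an exon of Meg3: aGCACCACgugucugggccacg
mmu-miR-770-3p, in an exon of Meg3: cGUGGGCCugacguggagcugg
mmu-miR-370-3p, in an intron of Rian: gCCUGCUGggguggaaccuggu
mmu-miR-675-5p, in an exon of H19: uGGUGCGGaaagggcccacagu
mmu-miR-675-3p, in an exon of H19: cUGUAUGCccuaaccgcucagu
None of the 15 shares its seed with another.

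Plagl1, a zinc finger transcription factor that acts on other imprinted genes (chr10:13060504-13131694), was lower in the high-UMI band in both aliquots. It was at 40.4 CPM (29.5 to 54.0) and 3.73 CPM (2.24 to 5.82) in the 10% aliquot, 10.8-fold lower (6.21 to 19.6). The 90% aliquot had it at 43.4 and 5.99 CPM, 7.24-fold lower (5.98 to 8.79), and 6.71-fold lower (5.36 to 8.44) in unshared barcodes. The unthinned shares of barcodes with a UMI did not show this (17.8% against 15.2%, and 13.1% against 16.0%), while the thinned shares were 9.64% against 1.21% and 9.31% against 1.61%. Without barcodes that held 2 markers of another cell type, Plagl1 had 45 UMIs in the 10% aliquot, under the minimum of 50, while its log2 ratio was -3.85 and -2.99.

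H19, a noncoding RNA known for induction during myogenic differentiation (chr7:142575529-142578143, minus strand), was the 1 member past 2-fold in the other direction. It was at 6.28 CPM (2.53 to 12.9, 7 UMIs) and 15.5 CPM (12.3 to 19.3) in the 10% aliquot, 2.47-fold higher (1.14 to 6.33) in the high-UMI band. In the 90% aliquot it was at 7.28 and 25.5 CPM, 3.50-fold higher (2.61 to 4.81), and 3.35-fold higher (2.42 to 4.75) in unshared barcodes. A UMI was found in 26.6% and 29.2% of the high-UMI barcodes, and in 4.80% and 6.10% after thinning. Barcodes of 10 to 100 UMIs in the 10% aliquot had 1 UMI of H19, 37.2 CPM (0.943 to 207), an interval that holds the level of both bands. This comparison rests on 1 UMI and on barcodes of unlike depth, so it does not tell expression from background in that aliquot.

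H19 was more abundant where Myog, the transcription factor of terminal differentiation, was present. Among high-UMI barcodes of the 90% aliquot it was at 15.1 CPM (13.6 to 16.8) in the 460 without Myog and 57.4 CPM (52.0 to 63.1) in the 146 with Myog. In the 10% aliquot the values were 14.4 CPM (11.0 to 18.4) in 67 barcodes and 21.7 CPM (12.6 to 34.8) in 12, whose intervals overlap. The genes with the most similar level over the 606 high-UMI barcodes of the 90% aliquot, among 8211 genes, were Tnni2 (Spearman correlation 0.33), Myog (0.28) and Tnnt3 (0.28), of which Tnni2 and Tnnt3 encode fast muscle troponins. Tnnt3 also lies within 100000 bases of H19. Over the 79 barcodes of the 10% aliquot the correlations were 0.19, 0.27 and 0.32. The points share 1 library.

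The ratio of H19 in the 10% aliquot rests on the 7 UMIs of the low-UMI band. With that band from 1000 UMIs instead of 3000 the log2 ratio was 0.42 in the 10% aliquot and 1.39 in the 90% aliquot, so H19 was not past 2-fold in both. Without barcodes that held 2 markers of another cell type it was 1.66 and 1.61, with 42 UMIs in the 10% aliquot, under the minimum of 50. Immune marker barcodes had no H19 UMI, which allows a level of up to 50.1 and 16.4 CPM.

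Igf2, the fetal growth factor beside H19 (chr7:142650766-142666816, minus strand), was nearly absent from the short reads: 0 and 1 UMI in the low-UMI and high-UMI bands of the 10% aliquot (0 of 157 barcodes, which allows a share with a short-read UMI of up to 1.91% and does not limit the share that express the gene) and 4 and 2 UMIs in the 90% aliquot. In the long reads of the 10% aliquot it had 69 UMIs in the low-UMI band (49.9 CPM, 38.8 to 63.2) and 56 in the high-UMI band (12.1 CPM, 9.14 to 15.7), 4.12-fold lower (2.86 to 5.98), found in 24 of the low-UMI barcodes and 16 of the high-UMI barcodes. Barcodes with under 1000 short-read UMIs had 35 long-read UMIs of Igf2, 20.6 CPM, above the level of the high-UMI band. Exons of Igf2 overlap those of another gene model of the same strand in the annotation, and the part of that overlap was not tested. No direction is therefore drawn for Igf2 from the short reads.

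Mest, a hydrolase of mesodermal tissue with the microRNA gene Mir335 in an intron (chr6:30723547-30748465, plus strand), differed by unlike amounts in the aliquots. Mest was at 96.0 CPM (78.7 to 116) and 121 CPM (111 to 131) in the 10% aliquot, 1.26-fold higher (1.02 to 1.56) in the high-UMI band. In the other aliquot it was at 65.4 and 170 CPM, 2.61-fold higher (2.36 to 2.88), and 3.98-fold higher (3.47 to 4.57) in unshared barcodes. Relative to the median gene the sign in the 10% aliquot was the opposite, -0.04 on the log2 scale.

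Short-read UMIs of Mest in the low-UMI band came from few barcodes. In the long reads of the 10% aliquot 48 low-UMI barcodes had Mest, with 447 UMIs. In the 10% aliquot 12 of 157 barcodes had a UMI and 2 of them held 92 of the 107 UMIs. Without those 2 the level was 13.7 CPM (7.69 to 22.7). Of the 1243 barcodes of the 90% aliquot 91 had a UMI, 19 of them held 312 of the 422, and the level without these was 17.5 CPM (14.4 to 21.1). No barcode was left out of the high-UMI band, where the highest 4 and 30 barcodes held 38.2% and 36.4% of the Mest UMIs. The low-UMI barcodes with at least 5 Mest UMIs were split off after the data were seen. They had 0 and 243 CPM of Meg3, against 1576 and 1897 CPM in barcodes with no Mest. They had no UMI of Calcr, a receptor of quiescent MuSCs, with upper limits of 159 and 21.3 CPM against 25.4 and 36.6 CPM. Of other quiescence markers, Chrdl2 was at 0 and 5.79 CPM against 164 and 223 CPM. Pax7 differed the other way, at 86.4 and 23.1 CPM against 26.4 and 18.2 CPM, with overlapping intervals. The barcodes with at least 5 Mest UMIs had more H19 (216 and 92.6 CPM, against 1.95 and 4.29) and more Peg3 (432 and 197 CPM, against 84.0 and 79.3). Their H19 rests on 5 and 16 UMIs, and they were deeper, with a median of 11573 and 8418 UMIs against 6632 and 4612.5. Myod1 was lower in them, at 0 and 249 CPM against 1180 and 1114 CPM, as was Msc, at 0 and 197 CPM against 805 and 793 CPM. Myog was at 463 CPM (367 to 576) in the 19 barcodes of the 90% aliquot, with its 80 UMIs in 15.8% of them, against 12.4 CPM (9.67 to 15.6) in those with no Mest. The 2 such barcodes of the 10% aliquot had 0 UMIs of Myog.

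Mest was in most high-UMI barcodes, 77.2% and 75.6% (22.8% and 27.1% when thinned, against 5.01% and 5.22% in the low-UMI band). With Myog its level was 270 CPM (258 to 282), against 138 CPM (133 to 143) without, in the 90% aliquot, and 126 and 120 CPM in the 10% aliquot, where the intervals overlap. Its level was 891 CPM in the 42 barcodes of 15000 to 20000 UMIs of the 90% aliquot, which neither band holds, and 120 CPM in the 12 such barcodes of the 10% aliquot. Barcodes of 10 to 100 UMIs in the 10% aliquot had 298 CPM (129 to 587; 8 UMIs), and those whose sequence is not in the 90% aliquot 250 CPM (81.1 to 583), an interval that holds the levels of both bands, whereas immune marker barcodes of the 90% aliquot had 1 UMI, 5.48 CPM (0.139 to 30.5). The nearest genes of Mest over the high-UMI barcodes of the 90% aliquot were Svbp (0.30), Tubb2b (0.30) and Tnnt1 (0.29), with 0.25, 0.43 and 0.29 in the 10% aliquot.

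**Figure D3:**
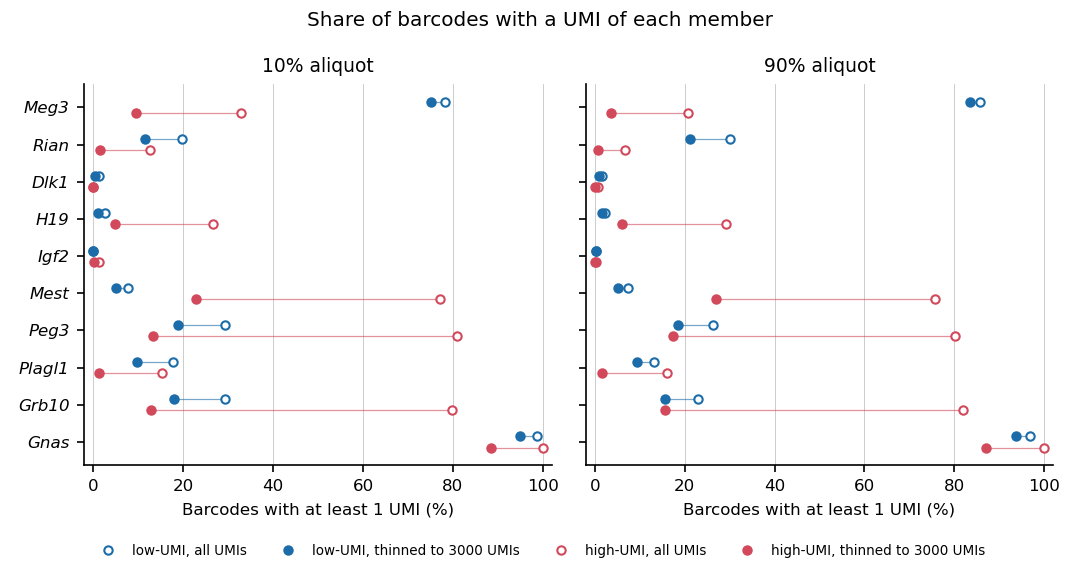
Share of barcodes with at least 1 UMI of each member, in percent, in the low-UMI and high-UMI bands of each aliquot. Open circles use all UMIs and filled circles each barcode thinned to 3000 UMIs. Meg3 thinned is at 75.2% against 9.52% and 83.6% against 3.67%, while Peg3 and Grb10 lose most of their high-UMI share when thinned.

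Peg3, a large zinc finger protein (chr7:6703892-6730431, minus strand), was lower in the high-UMI band by less than 2-fold. It was at 92.4 CPM (75.4 to 112) and 49.0 CPM (43.1 to 55.5) in the 10% aliquot, 1.89-fold lower (1.48 to 2.38), and at 83.2 and 67.2 CPM in the 90% aliquot, 1.24-fold lower (1.12 to 1.36). In unshared barcodes it was 1.19-fold lower (1.06 to 1.33). It was found in 29.3% and 26.4% of low-UMI barcodes and 81.0% and 80.2% of high-UMI barcodes, but in 18.7% against 13.2% and 18.4% against 17.4% after thinning. Its nearest genes were Igfbp5, Slc6a6 and Atp2b1 (0.26, 0.25 and 0.25, and 0.30, 0.28 and 0.18 in the 10% aliquot).

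Grb10, an adaptor protein that restrains insulin and IGF receptors (chr11:11930508-12038683, minus strand), gave nearly the same picture. It was at 90.6 CPM (73.8 to 110) and 49.4 CPM (43.5 to 55.9) in the 10% aliquot, 1.83-fold lower (1.44 to 2.32), and at 78.0 and 58.7 CPM in the 90% aliquot, 1.33-fold lower (1.20 to 1.47). The value in unshared barcodes was 1.25-fold lower (1.11 to 1.41). The thinned shares were 18.0% against 12.8% and 15.7% against 15.5%. Its nearest genes were the stress response genes Atf4 (0.31) and Hmox1 (0.30) and the amino acid transporter Slc38a2 (0.29), with 0.19, 0.29 and 0.33 in the 10% aliquot.

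Gnas, the stimulatory G protein alpha subunit (chr2:174284320-174346744, plus strand), was found in nearly every barcode. It was at 1584 CPM (1511 to 1659) and 841 CPM (816 to 866) in the 10% aliquot, 1.88-fold lower (1.78 to 1.99) in the high-UMI band, and at 1513 and 796 CPM in the 90% aliquot, 1.90-fold lower (1.86 to 1.95). In unshared barcodes it was 1.87-fold lower (1.81 to 1.92). These ratios stay below 2-fold, and relative to the median gene Gnas was past it, with -1.28 and -1.31 on the log2 scale. Immune marker barcodes had Gnas too, at 584 and 526 CPM, and barcodes of 10 to 100 UMIs in the 10% aliquot were at 894 CPM (573 to 1330), which is not below the 841 CPM of the high-UMI band. These are shares of UMIs in barcodes of unlike depth, so they do not tell expression from background. The 1132 barcodes of 10 to 100 UMIs held 24 UMIs of Gnas in all. Each of the 79 high-UMI barcodes of that aliquot had Gnas, with a mean of 54.3 UMIs. With and without Myog in the high-UMI band Gnas was at 847 and 840 CPM in the 10% aliquot and at 798 and 796 CPM in the 90% aliquot, and these intervals overlap. Its nearest genes were Ybx1 (0.46), Fth1 (0.45) and Rps27l (0.44), with 0.26, 0.24 and 0.24 in the 10% aliquot. Gnas exons overlap antisense genes, and whether counting used the strand is not given in the sources used here.

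**Figure D4:**
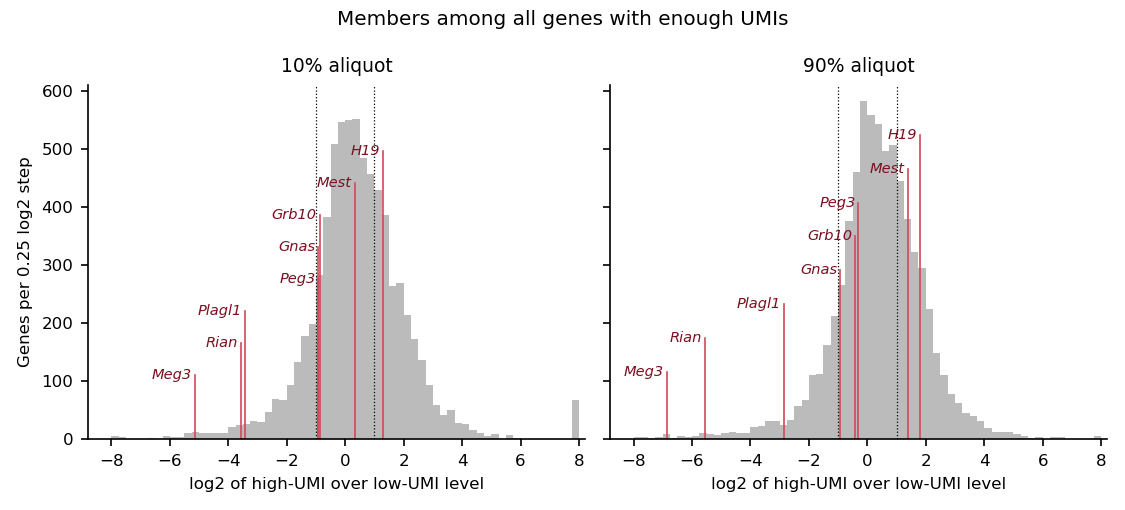
Number of genes per 0.25 step of the log2 ratio of the high-UMI over the low-UMI level in each aliquot, over 7051 genes, with the 8 members of at least 50 UMIs marked by lines and dotted lines at 2-fold. The end bars collect genes at or beyond 8 on this scale in either direction. Meg3, Rian and Plagl1 lie in the lower tail, H19 past the upper line.

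Other imprinted genes, genes of the IGF pathway, genes of G proteins and cAMP signalling, and genes near a member were taken as lists. The lists were chosen with earlier results of these data known. Of 55 other imprinted genes 14 had enough UMIs, of which 3 were lower and 3 higher in both aliquots (median log2 0.11 and -0.01), beside the 12.0% lower and 27.5% higher of all 7051 genes. Airn, the noncoding RNA of the Igf2r locus, was at 52.0 and 1.37 CPM in the 10% aliquot and 51.6 and 1.31 CPM in the 90% aliquot, 37.9-fold and 39.5-fold lower. Zdbf2 was 5.38-fold and 4.63-fold lower and the noncoding Kcnq1ot1 2.96-fold and 2.79-fold lower. Commd1 (3.21-fold and 2.57-fold), Nap1l4 (2.85-fold and 2.34-fold) and Mcts2 (2.59-fold and 2.43-fold) were higher. Airn and Kcnq1ot1 are antisense to protein-coding genes and Mcts2 is a near copy of Mcts1, so reads of these may be shared. Cdkn1c, a cell cycle inhibitor named after its values were seen, differed in opposite directions, from 36.8 to 60.2 CPM in the 10% aliquot and from 134 to 30.3 CPM in the 90% aliquot.

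Of 24 genes of the IGF pathway 16 had enough UMIs, with 5 lower and 2 higher (median log2 -0.64 and -0.94), beside the same 12.0% and 27.5% of all genes. Igfbp7, an IGF-binding protein, was 6.18-fold and 20.4-fold lower and the RNA-binding proteins Igf2bp3 10.1-fold and 6.31-fold and Igf2bp2 2.19-fold and 3.54-fold lower. Igfbp4 was 3.73-fold and 4.02-fold lower and the receptor substrate Irs2 3.34-fold and 4.14-fold lower. Igfbp2 was 17.4-fold (4.73 to 145) and 13.8-fold (8.59 to 23.8) higher, from 2 and 17 UMIs in the low-UMI band, and the kinase Akt1 5.25-fold and 2.75-fold higher.

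Of 21 genes of G proteins and cAMP signalling 16 had enough UMIs, with 4 lower and 2 higher (median log2 -0.11 and -0.05), again beside 12.0% and 27.5%. The phosphodiesterase Pde4b was at 301 and 10.6 CPM in the 10% aliquot and 360 and 11.7 CPM in the 90% aliquot, 28.5-fold and 30.8-fold lower. Crem, a transcription factor of cAMP response elements, was 15.9-fold and 18.9-fold lower, Pde4d 8.98-fold and 9.40-fold, and Gna13 2.59-fold and 2.12-fold. Prkar2b, a regulatory subunit of protein kinase A, was 6.51-fold and 7.22-fold higher and Gna11 2.75-fold and 2.61-fold.

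Genes within 100000 bases of a member numbered 157, and 9 had enough UMIs, of which 2 were lower and 1 higher, beside 12.0% and 27.5%. Near Plagl1, Stx11 was 16.4-fold and 9.14-fold lower and Sf3b5 3.34-fold and 2.91-fold higher. Lsp1, near H19, was 5.37-fold and 4.27-fold lower. Stx11 and Sf3b5, both near Plagl1, differed in opposite directions.

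Markers of other cell types differed with the bands, and their part in the results was not tested. The summed immune markers were at 348 and 304 CPM in the low-UMI band and 106 and 5.49 CPM in the high-UMI band. In the 10% aliquot Cd74 alone was 235 of the 348 CPM, while Fcer1g, Lyz2, C1qa and C1qb were higher in the high-UMI band, and 0.637% of low-UMI against 6.33% of high-UMI barcodes held 2 immune markers. Of the 10 markers, 7 and 9 were above 0 in the low-UMI band, and Ptprc was at 0 in the 10% aliquot. The summed fibro-adipogenic markers were at 191 and 309 CPM against 63.1 and 33.4 CPM, with Pdgfra at 0 in the low-UMI band of both aliquots. Col3a1 was 148 and 218 CPM of the low-UMI sums, found in 43.3% and 42.9% of low-UMI barcodes. Col1a1 (9.87 against 29.2 CPM) and Dcn (0.897 against 4.51 CPM) were higher in the high-UMI band of the 10% aliquot and lower in that of the 90% aliquot. Col3a1 and Dpt were lower in the high-UMI band of both. The summed myofibre markers, which include Tnnt3, were higher in the high-UMI band, at 76.3 and 93.8 CPM against 127 and 158 CPM. Ttn was most of the high-UMI sum, at 15.3 and 11.2 CPM against 91.6 and 91.7 CPM, and Tnnt3 and Mylpf were also higher. Acta1 (28.7 and 45.9 against 10.4 and 17.0 CPM) and Ckm (15.3 and 11.3 against 1.18 and 1.07 CPM) were lower, as was Myh4 in the 90% aliquot. Without thinning to equal depth, 2 myofibre markers were in 5.73% and 4.51% of low-UMI and 38.0% and 38.1% of high-UMI barcodes. Without the barcodes that held 2 markers of another cell type, the log2 ratio of Meg3 was -5.92 and -7.39 and that of Rian -4.47 and -5.96, both lower in the high-UMI band.

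Long reads of the 10% aliquot, 1382498 UMIs in the low-UMI and 4628237 in the high-UMI band, gave isoforms of the members. Meg3 was at 4051 and 174 CPM in them, 23.3-fold lower (21.6 to 25.1), Rian 9.12-fold lower (6.58 to 12.8), Plagl1 7.35-fold lower (4.89 to 11.2), Gnas 2.06-fold lower (1.91 to 2.21) and H19 2.50-fold higher (1.43 to 4.71). The 1661 barcodes with under 1000 short-read UMIs held 1701003 long-read UMIs, with Meg3 at 922 CPM and Gnas at 604 CPM, so the long-read level of Meg3 in the high-UMI band lies below the level in barcodes that hold few short-read UMIs. Of 7 members with 2 isoforms and at least 50 long-read UMIs in each band, Igf2 and Peg3 had an isoform whose share differed by at least 20 percentage points (26.3 and 20.3), beside 17.5% of 3232 genes. Neither was past 20 points with the high-UMI band from 40000 UMIs, and without the rule on Rrm2, Top2a and Cdk1 Igf2 was and Peg3 was not. No isoform of Igf2 or Peg3 with UMIs in the bands has a reference name, so reference-named isoforms alone could not show a shift in them.

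Gnas is known to include or skip the third exon, which gives the long and short forms of the protein. This exon, chr2:174336747-174336791 (plus strand, 45 bases), is shown in capitals between 20 bases of the exons before and after it, and the second line gives the same flanks where it is skipped.
Gnas-208, exon included: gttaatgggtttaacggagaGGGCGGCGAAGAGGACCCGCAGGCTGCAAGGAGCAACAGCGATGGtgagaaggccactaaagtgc
Gnas-206, exon skipped: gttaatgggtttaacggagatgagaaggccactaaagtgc
Its length of 45 bases is a multiple of 3, so the reading frame after it is kept. Of long-read UMIs given to either transcript, the exon was in 341 of 575 (59.3%, 55.2 to 63.4) in the low-UMI band and 683 of 906 (75.4%, 72.4 to 78.2) in the high-UMI band, a difference of 16.1 points (11.2 to 21.0). The intervals of the bands do not overlap, and the pair was chosen after the isoforms were seen. A cassette exon of 104 bases in Mest, chr6:30740240-30740343, was in 11.9% of 337 and 11.1% of 1318 UMIs, a difference of -0.79 points (-4.99 to 2.74).

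The starts of Gnas differed little. Transcripts from exon 1, the start of the G protein subunit, had 60.6% of 1235 UMIs in the low-UMI band and 62.5% of 2010 in the high-UMI band. Those from exon 1A, the start upstream that gives noncoding transcripts, had 33.8% and 31.8%. Short transcripts from exon 1A that end before exon 2 had 8.74% (7.23 to 10.5) and 1.64% (1.13 to 2.30). Those of the Nesp start, which encodes a neuroendocrine secretory protein, had 2.67% and 2.54%.

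Ends and starts of other members differed more. Peg3 isoforms that end at the last base of the gene, position 6703892 of chromosome 7, had 25.9% (20.3 to 32.1) of 224 UMIs in the low-UMI band and 46.2% (41.4 to 51.1) of 424 in the high-UMI band. Those that end at 6724322, nearer the start, had 29.5% and 18.9%. In Meg3 the end at position 109545319 of chromosome 12 had 52.8% (51.4 to 54.1) of 5601 UMIs and 40.8% (37.4 to 44.3) of 806. Igf2 transcripts that start at position 142658764 of chromosome 7 had 40.6% (28.9 to 53.1) of 69 UMIs and 14.3% (6.38 to 26.2) of 56. In Grb10 the start at position 12037401 of chromosome 11 had 70.3% (63.5 to 76.5) of 202 UMIs and 55.3% (50.2 to 60.2) of 400. Isoform ends were grouped after the isoforms were seen, and read length may end an isoform early, the part of which was not tested.

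**Figure D5:**
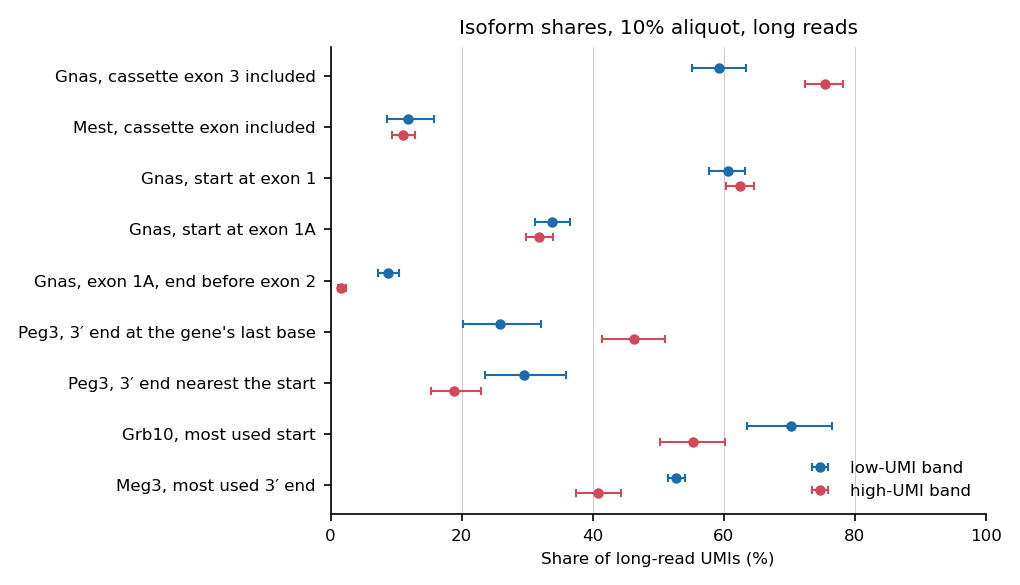
Share of long-read UMIs, in percent, of 9 groups of isoforms in the low-UMI and high-UMI bands of the 10% aliquot, with exact 95% binomial intervals. Gnas exon 3 is at 59.3% and 75.4% of the UMIs of the pair of transcripts, the Mest exon at 11.9% and 11.1%, and the Peg3 end at the last base at 25.9% and 46.2%.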

How the data were processed

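Cells were captured on the 10x Chromium v2 platform, and the 2 aliquots come from the same capture. The authors deposited raw UMI counts per gene from short reads (scPipe per the paper's methods; Cell Ranger 1.3 and minimap2 2.17 per the submitters' processing notes), and UMI counts per isoform from long reads (Guppy, minimap2 and FLAMES) with an isoform annotation on mm10. The deposited barcode tables give barcode sequences and an undescribed count per barcode, which was not used. Strand settings of the counting are not given in the sources used here. Gene names and positions come from Gencode vM21, which has the assembly of the files (GRCm38), and sequences from Gencode vM21 or RefSeq (GRCm38.p6).

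UMIs were summed over the barcodes of each band and scaled to 1000000 UMIs (CPM). Ratios have exact conditional binomial intervals, levels exact Poisson and shares Clopper-Pearson intervals (95%), and the interval of a difference of shares is Newcombe's. A gene was called at 2-fold in both aliquots with at least 50 UMIs over both bands in each. All barcodes were used as deposited, 6772259 UMIs in 1991 barcodes of the 10% aliquot and 39044129 UMIs in 3001 of the 90% aliquot. No doublet caller was run. Thinned shares are the expected share at 3000 UMIs. The calculation of the ratio and its interval was run on simulated Poisson counts, which hold no unevenness between barcodes. Computations used Python 3.11.15, numpy 2.4.6, scipy 1.17.1, pandas 2.3.3 and statsmodels 0.14.6. Members are named with all their values, list genes where past 2-fold in both aliquots (at most 10 per list by mean log2 ratio), and the 3 genes most alike by Spearman correlation over the high-UMI barcodes of the 90% aliquot. Members, lists and bands were chosen with earlier results of these data known. Alternatives were other band limits, scalings, barcode sets, folds, UMI minimums and long reads in place of short reads.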

Additional observations from a re-analysis of the deposited data

Results flagged for a closer look

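Igf2 had 125 long-read UMIs over both bands of the 10% aliquot, where the short reads of the same barcodes held 1 UMI in 79 high-UMI barcodes and 0 in 157 low-UMI barcodes. It stands out because the long reads are outside the comparison of short-read levels. A long-read UMI of Igf2 was in 24 low-UMI and 16 high-UMI barcodes. The reason for the gap between the read types was not tested.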

How the results depend on the processing

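Over 152 values of the 8 members under the alternatives, 115 stayed within the interval of the value reported, 36 moved outside it in the same direction, and 1 changed sign: Mest in the 10% aliquot, -0.042 on the log2 scale when ratios were centred on the median gene. The log2 ratio of Meg3 ranged from -5.92 to -4.22 in the 10% aliquot and from -7.46 to -6.65 in the 90% aliquot, that of Rian from -4.47 to -3.14 and from -6.31 to -5.44, and that of Plagl1 from -3.85 to -2.88 and from -3.24 to -2.74. The ratio of H19 ranged from 0.42 to 2.07 and from 1.39 to 1.90. The count of members higher by 2-fold, 1 as reported (H19), was 0 with the low-UMI band from 1000 UMIs, without the rule on Rrm2, Top2a and Cdk1, with centring on the median gene, without barcodes holding 2 markers of another cell type, and at 3-fold, and was 2 (H19 and Mest) with a mean over barcodes. The count of members lower, 3 as reported, was 5 (Meg3, Rian, Igf2, Plagl1 and Gnas) with long reads of the 10% aliquot alone, 4 (Gnas added) with centring on the median gene and at 1.5-fold, and 2 (Meg3 and Rian) without barcodes holding 2 markers of another cell type, where Plagl1 was under 50 UMIs. The count of members with an isoform shift, 2 as reported, was 0 with reference-named isoforms alone, 0 with the high-UMI band from 40000 UMIs, 1 (Igf2) without the rule on Rrm2, Top2a and Cdk1, and 3 (Plagl1 added) with at least 20 UMIs in each band. With reference-named isoforms alone, Igf2 and Peg3 could not be counted, because none of their isoforms with UMIs in the bands has such a name. Causes were not tested. Without the barcode sequences of both aliquots none is left in the 10% aliquot, so the count with unshared barcodes uses the 10% aliquot as it is, an alternative added after the data were seen. Limited to as many barcodes as the study counted as cells, those with the most UMIs, the 90% aliquot has no low-UMI barcode left and gave no value. No paired analysis was possible because the 2 libraries are of 1 capture with 1 library each and no test was made. Depth limits the members with few UMIs, Dlk1 and Igf2 throughout and H19 in the low-UMI band.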
